A study of Mus musculus with 15 samples.

Results

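The genes described here encode the growth factor receptor Ret, the GDNF co-receptors Gfra1 and Gfra2, the ligands Gdnf and Bdnf, and the neurotrophin receptors Ntrk2 (TrkB), Ntrk3 (TrkC) and Ngfr (p75). The set is a list of gene symbols whose rule uses no measured value, although it was drawn up with earlier results of these data known, and all 8 were found as single rows among the 35976 genes of the deposited count table. Their levels were followed in nuclei sorted from the mouse ventral tegmental area, a midbrain region that holds dopamine neurons, at 3 stages of a cocaine self-administration schedule.

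All mice were males, 8 to 12 weeks old and heterozygous for the allele of the strain B6.SJL-Slc6a3tm1.1(cre)Bkmm/J, known as DAT-Cre, in which Cre recombinase is driven by the dopamine transporter gene Slc6a3. All received AAV5-DIO-KASH-HA in the ventral tegmental area, a Cre-dependent virus that tags the nuclear envelope with HA, 14 days before training. The food-trained group was collected after the last of the lever-press sessions for food, in which the ratio rose from FR1 to FR5 over 7 days. The maintenance group then had jugular catheter surgery and pressed for intravenous cocaine 1 hour a day, over 5 days of acquisition (0.3 mg/kg/infusion) and 10 days of maintenance (1.0 mg/kg/infusion). The abstinence group, named craving in the labels, went through the same sessions and then 21 days in the home cage without cocaine. Each sample pooled punches of 2 mice, and nuclei were sorted by HA antibody into HA-positive (dopaminergic, DA) and HA-negative (non-dopaminergic) fractions. There were 4 food-trained DA samples, 3 maintenance DA samples, 4 abstinence DA samples and 4 food-trained non-dopaminergic samples, from different mice at each stage. Because food-trained mice were taken before catheter surgery and earlier in the schedule, cocaine, surgery and time cannot be told apart in comparisons with them.

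GDNF family ligands bind a GPI-anchored co-receptor of the Gfra family, and the pair then recruits Ret, a receptor tyrosine kinase that signals through the Ras-MAPK and PI3K-Akt cascades. Gfra1 is the preferred co-receptor for GDNF and Gfra2 for neurturin (Nrtn), and this system is known for its trophic action on midbrain dopamine neurons. Neurotrophins are the second family: BDNF acts through TrkB, neurotrophin-3 (Ntf3) through TrkC, and p75 binds all mature neurotrophins and their uncleaved precursors. Both systems have been studied in the ventral tegmental area for their part in responses to cocaine.

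In the GRCm38 annotation (GENCODE M21), Ret lies at chr6:118151745-118197718 on the minus strand and Gfra1 at chr19:58235604-58455909 on the minus strand. Gfra2 lies at chr14:70890120-70979838 on the plus strand. The ligand genes are at chr15:7810846-7837575 (Gdnf) and chr2:109674700-109727007 (Bdnf), both on the plus strand. Ntrk2 lies at chr13:58806569-59133970 on the plus strand. Ntrk3 (chr7:78175959-78738012) and Ngfr (chr11:95568818-95587735) lie on the minus strand. The sources used here do not say whether strand was used in counting, so reads of overlapping genes may have been shared. An overlapping gene that the count table also lists was annotated for Ntrk2, with Gm34245 on the other strand and for Ntrk3, with Gm39038 inside an intron on the same strand.

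Promoter sequences of 300 bases, from 250 before to 50 after the start, were taken from RefSeq (GRCm38.p6), which gave an entry for 5 of the 8 genes. Those shown were picked because they belong to the co-receptor that differed between the sorted populations and to the ligand genes, of which Gdnf was barely detected and Bdnf was measured in all libraries. Gfra1 at chr19:58455349-58455648 is on the minus strand. Gdnf at chr15:7809798-7810097 is the first of 2 starts, and Bdnf at chr2:109692186-109692485 is the third of 7 starts, shown because it was the one with a motif match. These lie on the plus strand. Capitals mark matches to the motifs searched on both strands.
Gfra1: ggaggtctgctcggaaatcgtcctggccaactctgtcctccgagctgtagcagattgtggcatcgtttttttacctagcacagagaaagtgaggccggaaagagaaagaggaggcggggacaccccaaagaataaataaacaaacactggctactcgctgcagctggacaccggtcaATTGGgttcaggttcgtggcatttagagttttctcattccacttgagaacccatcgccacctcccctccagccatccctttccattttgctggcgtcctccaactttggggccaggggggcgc
Gdnf: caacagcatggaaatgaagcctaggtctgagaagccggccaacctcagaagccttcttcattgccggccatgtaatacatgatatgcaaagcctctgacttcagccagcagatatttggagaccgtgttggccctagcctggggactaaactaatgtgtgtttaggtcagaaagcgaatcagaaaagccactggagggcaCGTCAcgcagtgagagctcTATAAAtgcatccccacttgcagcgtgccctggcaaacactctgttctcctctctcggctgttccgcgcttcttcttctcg
Bdnf: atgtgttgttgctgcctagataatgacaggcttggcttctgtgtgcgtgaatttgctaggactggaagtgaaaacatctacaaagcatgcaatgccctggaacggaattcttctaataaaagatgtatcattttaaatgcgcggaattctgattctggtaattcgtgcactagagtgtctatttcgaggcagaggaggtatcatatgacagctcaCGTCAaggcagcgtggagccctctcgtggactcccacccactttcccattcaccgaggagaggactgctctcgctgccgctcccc
Among the motifs were AAAGGTCA, a binding site of the NR4A nuclear receptors, and TGACGTCA, the cAMP response element. The core of that element, TGACG, was also searched by itself and so overlaps it. The remaining ones were the TATA box, spelled TATAAA, and the promoter element CCAAT. The Gfra1 window holds CCAAT on the reverse strand, a motif present in 37.41% of 32851 RefSeq mouse promoters of the same length. The Gdnf window holds TATAAA, found in 13.62% of promoters, with TGACG on the reverse strand 50 bases before the start. The Bdnf window holds TGACG on the reverse strand 35 bases before the start, and 20.81% of all promoters hold these letters. The other 6 Bdnf windows and those of Ntrk2 and Ngfr held none of the motifs searched, and the second Gdnf window held CCAAT. AAAGGTCA (1.51% of promoters) and TGACGTCA (1.79%) were not found in any window of the 5 genes. These matches describe the sequence and were not measured as sites.

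Total counts were between 25813697 and 59046618 per library, and the genes described here took 0.186 to 0.359% of them in DA libraries and 0.105 to 0.126% in non-dopaminergic libraries. The low-input kit amplifies cDNA and the labels name no molecular identifiers, so any precision from counts covers counting error only. The DA label was met by its markers: the summed level of 12 dopamine neuron markers was 5921 to 12790 CPM (counts per 1e6, scaled by TMM library factors) in DA libraries against 405 to 634 in the others. The label of the second fraction, non-dopaminergic neurons, was met only in part. The 9 oligodendrocyte markers summed to 10200 to 24560 CPM there against 1849 to 2867 CPM in food-trained DA libraries, and 8 of the 9 were lower in DA nuclei, so it is called non-dopaminergic nuclei here. Astrocyte markers summed to 2037 to 4090 against 1691 to 2145 CPM, and microglia markers to 1602 to 3115 against 517 to 945 CPM. Vascular markers summed to 267 to 502 against 9.68 to 195.8 CPM. None of the marker genes was at 0 in every library of a group.

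The first comparison asked which of these genes separate the sorted populations in food-trained mice. Ret and Gfra1 were higher in DA nuclei, by 19.67-fold and 4.36-fold. Gfra2 was 2.12-fold higher in mean and narrowly missed the threshold. Bdnf, Ntrk2, Ntrk3 and Ngfr did not pass it, and Gdnf was too low to be tested. The count past the threshold was 2 of 7 members tested, both higher, where 12.8% of all 19786 genes tested passed, 3.63% as higher and 9.17% as lower in DA nuclei (edgeR quasi-likelihood test, Benjamini-Hochberg adjusted p under 0.05 over all genes). At an unadjusted p under 0.05 there were 3 of 7 members, the third being Gfra2, against 24.3% of all genes in the same edgeR fit. The median difference on the log2 scale was 0.72 over the 7 members tested and -0.21 over all genes.

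**Figure D1:**
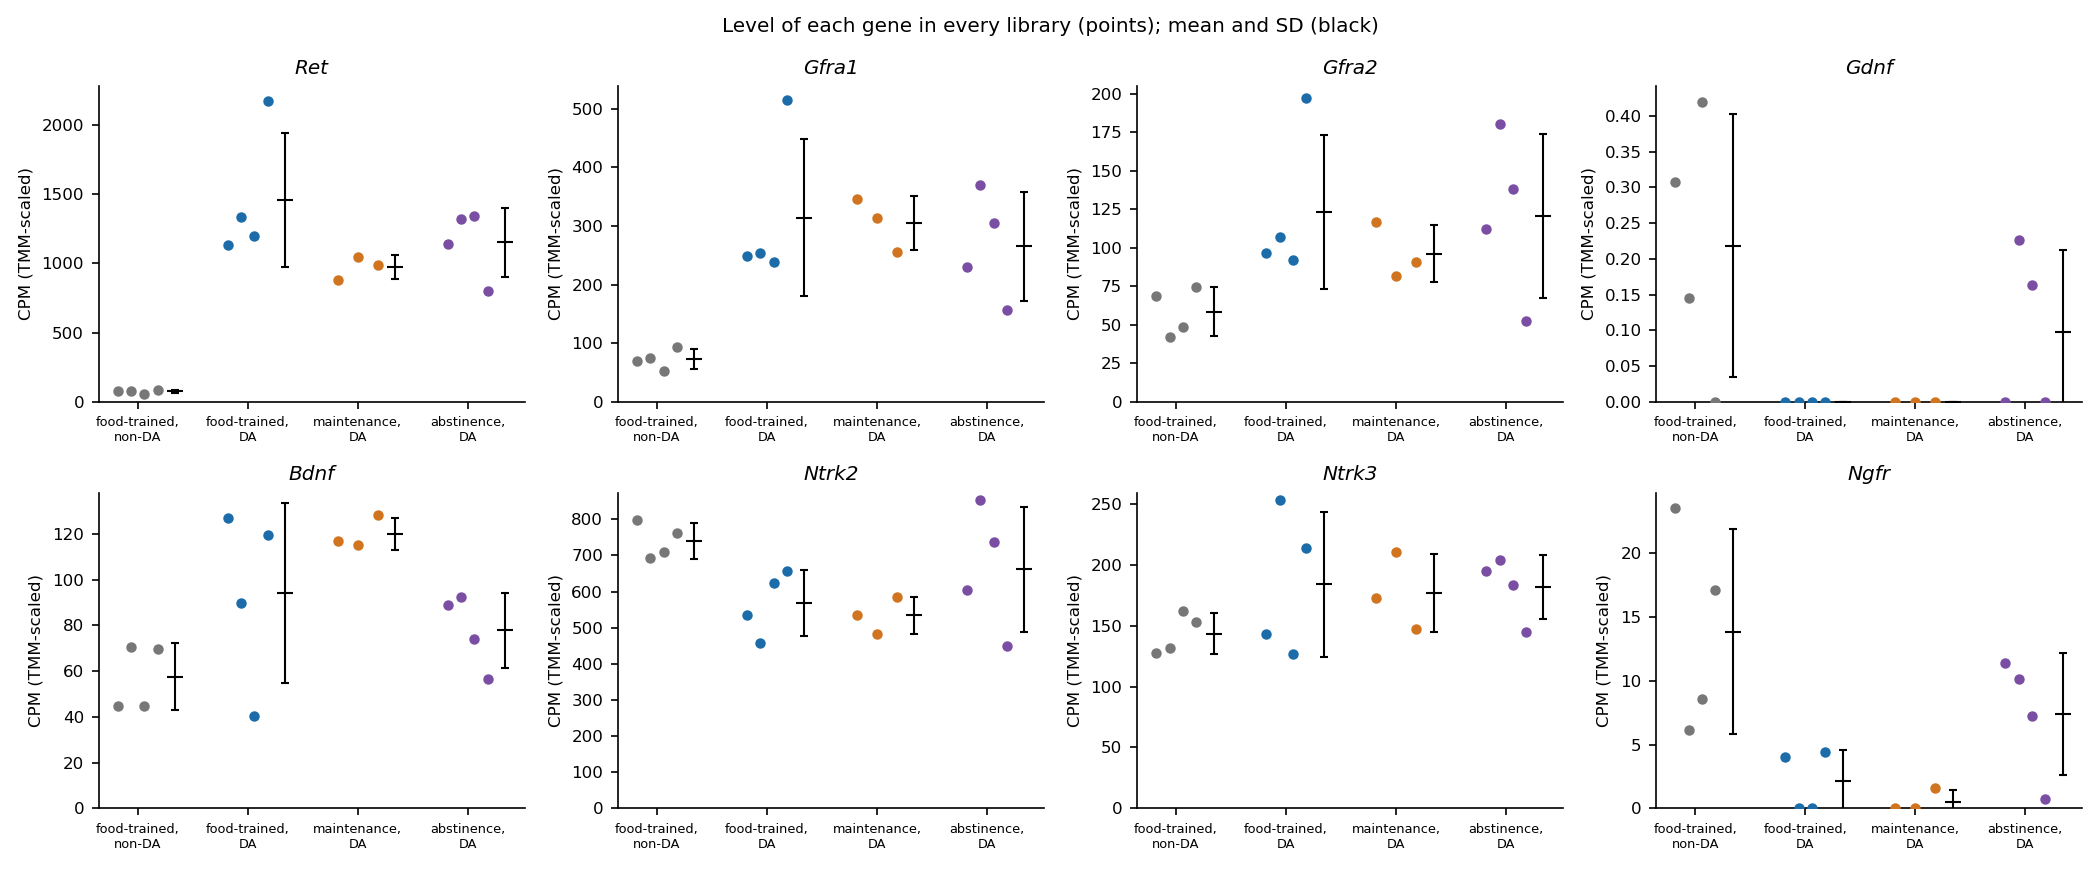
Level of each gene in CPM (vertical axis, from 0, scaled separately for each gene) in every library (points), by group, with the mean and SD in black. The Ret points of the 4 non-dopaminergic libraries lie at 54.8 to 84.4 CPM, below all DA libraries, while the Ntrk2 points of the food-trained DA libraries, at 456 to 657 CPM, lie just below the 692 to 799 CPM of the non-dopaminergic libraries.

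Gdnf, the ligand that signals through Gfra1 and Ret, was barely detected in these nuclei. All 4 food-trained and all 3 maintenance DA libraries had 0 counts, and the abstinence libraries had 0, 12, 9 and 0 counts. By counting error alone, a count of 0 allows up to 3 counts, which is 0.0518 to 0.108 CPM in the DA libraries at their depths. The spread between libraries can be wider, as for Ngfr, with 233, 0, 0 and 202 counts in the food-trained DA libraries. The non-dopaminergic libraries had 15, 7, 18 and 0 counts, at most 0.42 CPM. Gdnf was thus detected in 3 of 4 non-dopaminergic and 2 of 11 DA libraries, at levels too low for the filter on low counts, and no fold change is given.

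Ret, the signalling receptor, stood at 1134, 1335, 1195 and 2174 CPM in the 4 food-trained DA libraries and at 79.5, 80.3, 54.8 and 84.4 CPM in the 4 non-dopaminergic libraries. The groups did not overlap, a pattern that 6.41% of all genes tested showed in this direction. Replicate 4 was the highest of the DA libraries. The means were 1459.5 ± 484 and 74.7 ± 13.5 CPM (SD, n = 4 each). The difference was 4.30 on the log2 scale (SE 0.30, 95% interval 3.62 to 4.98, edgeR adjusted p = 0.000642), which is a fold of 19.67 with an interval of 12.27 to 31.52. It passed the threshold under all 16 alternatives run, between 4.04 and 4.40. In bulk libraries, fewer cells of a type and less RNA per cell cannot be told apart, which holds for each difference below as well.

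Gfra1, the GDNF co-receptor, stood at 249, 254, 239 and 516 CPM in food-trained DA libraries and at 70.0, 74.0, 52.2 and 94.1 CPM in non-dopaminergic libraries. Again the groups did not overlap, as for 6.41% of genes tested in this direction. DA replicate 4 stood apart from the other 3 DA libraries. On the log2 scale the difference was 2.12 (SE 0.31, 95% interval 1.42 to 2.83, edgeR adjusted p = 0.00670), a fold of 4.36. Without DA replicate 4 it was 1.78 and still past the threshold.

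Gfra2, the neurturin co-receptor, stood at 96.5, 107, 92.4 and 197 CPM in food-trained DA libraries and at 68.8, 42.1, 48.6 and 74.8 CPM in non-dopaminergic libraries. The lowest DA library lay above the highest non-dopaminergic one, a pattern that 6.41% of all genes tested showed in this direction. This came to a log2 fold change of 1.08 (SE 0.31, 95% interval 0.39 to 1.78), with an edgeR adjusted p of 0.05003, just over the threshold. It passed under 7 of the 16 alternatives, and the adjusted p ranged from 0.00775 with the DESeq2 test to 0.128. Without DA replicate 4 the log2 fold change was 0.76.

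Per kilobase of the longest annotated transcript, Gfra1 was above Gfra2 in every food-trained DA library, with a ratio of 1.78 to 1.95. In the non-dopaminergic libraries the ratio was 0.761 to 1.31, so the ranges did not overlap. Ret exceeded the sum of its co-receptors in DA nuclei, at a ratio of 2.37 to 2.86 per kilobase. In non-dopaminergic nuclei Ret was below that sum, at 0.37 to 0.524. The ratio of Ret to the co-receptors therefore had a mean of 2.65 ± 0.228 in one fraction and 0.427 ± 0.067 in the other (SD, n = 4 each). These ratios restate the differences of the single genes, and no separate test was made.

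**Figure D2:**
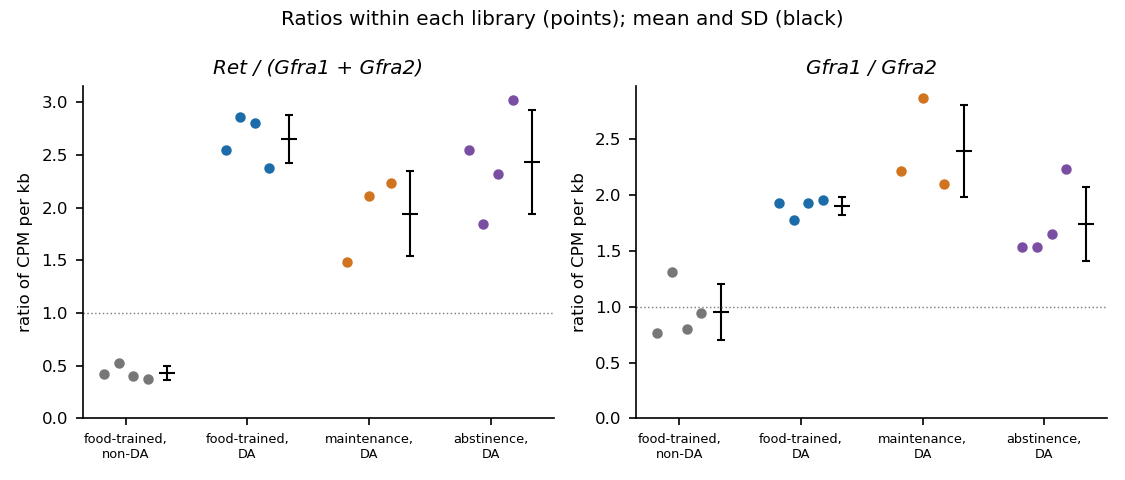
Ratios of transcript levels within each library (points, CPM per kilobase on the vertical axes, from 0), Ret over Gfra1 plus Gfra2 and Gfra1 over Gfra2, with mean and SD in black; the dotted line marks equal levels. All 11 DA libraries lie above 1 in both panels, and the non-dopaminergic libraries lie at 0.37 to 0.524 for Ret over its co-receptors.

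Bdnf, the ligand of TrkB, stood at 127, 89.9, 40.3 and 120 CPM in food-trained DA libraries. In non-dopaminergic libraries it was 44.9, 70.7, 44.6 and 69.6 CPM. Of the DA libraries, 3 lay above every non-dopaminergic library and replicate 3 lay below all of them. Their means differed by 0.72 on the log2 scale (SE 0.36, 95% interval -0.08 to 1.53, edgeR adjusted p = 0.262). Without DA replicate 3, the library with the lowest total count, it was 1.00 with an adjusted p of 0.0269 in the same test. Bdnf transcripts were thus measured in both fractions, in contrast to those of Gdnf.

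Ntrk2, the gene of TrkB, was the most abundant neurotrophin receptor in both fractions. It stood at 536, 456, 625 and 657 CPM in food-trained DA libraries and at 799, 692, 708 and 763 CPM in non-dopaminergic libraries. Every DA library lay below every non-dopaminergic one, a pattern that 19.7% of genes showed in this direction. On the log2 scale Ntrk2 differed by -0.37 (SE 0.18, 95% interval -0.78 to 0.04, edgeR adjusted p = 0.261), so a fold below 0.581 lay outside the interval. TrkB is made as a full-length kinase and as truncated forms, the latter abundant in astrocytes, and counts per gene do not separate them. The part of the astrocyte markers given above in this difference was not tested.

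Ntrk3, the gene of TrkC, stood at 143, 253, 127 and 214 CPM in food-trained DA libraries and at 128, 131, 162 and 154 CPM in non-dopaminergic libraries. The groups overlapped, with 2 DA libraries above and 1 below all non-dopaminergic libraries. On the log2 scale Ntrk3 differed by 0.37 (SE 0.24, 95% interval -0.18 to 0.92, edgeR adjusted p = 0.421).

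Ngfr, the gene of p75, was low everywhere. The food-trained DA libraries had 233, 0, 0 and 202 counts, or 4.03, 0, 0 and 4.41 CPM. The non-dopaminergic libraries had 1147, 295, 366 and 787 counts, or 23.6, 6.14, 8.54 and 17.1 CPM. The groups did not overlap, a pattern that 19.7% of genes tested showed in this direction. Counts of 0 beside counts of over 200 in replicates made the estimate imprecise. The fitted difference was -2.70 on the log2 scale (SE 1.66, 95% interval -6.46 to 1.06, edgeR adjusted p = 0.382). With limma-voom it was -5.87 with an adjusted p of 0.0379. The summed oligodendrocyte, microglia and vascular markers did not overlap between the fractions either, at 10200 to 24560, 1602 to 3115 and 267 to 502 CPM in non-dopaminergic libraries against 1849 to 2867, 517 to 945 and 9.68 to 195.8 CPM in DA libraries. Nor did the summed oligodendrocyte precursor markers, at 216.5 to 272.7 against 36.19 to 80.35 CPM. By the edgeR test 8 of 9 oligodendrocyte, 5 of 8 microglia, 0 of 8 vascular and 0 of 5 precursor markers passed as lower in DA nuclei. The part of these markers in the level of Ngfr was not tested.

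**Figure D3:**
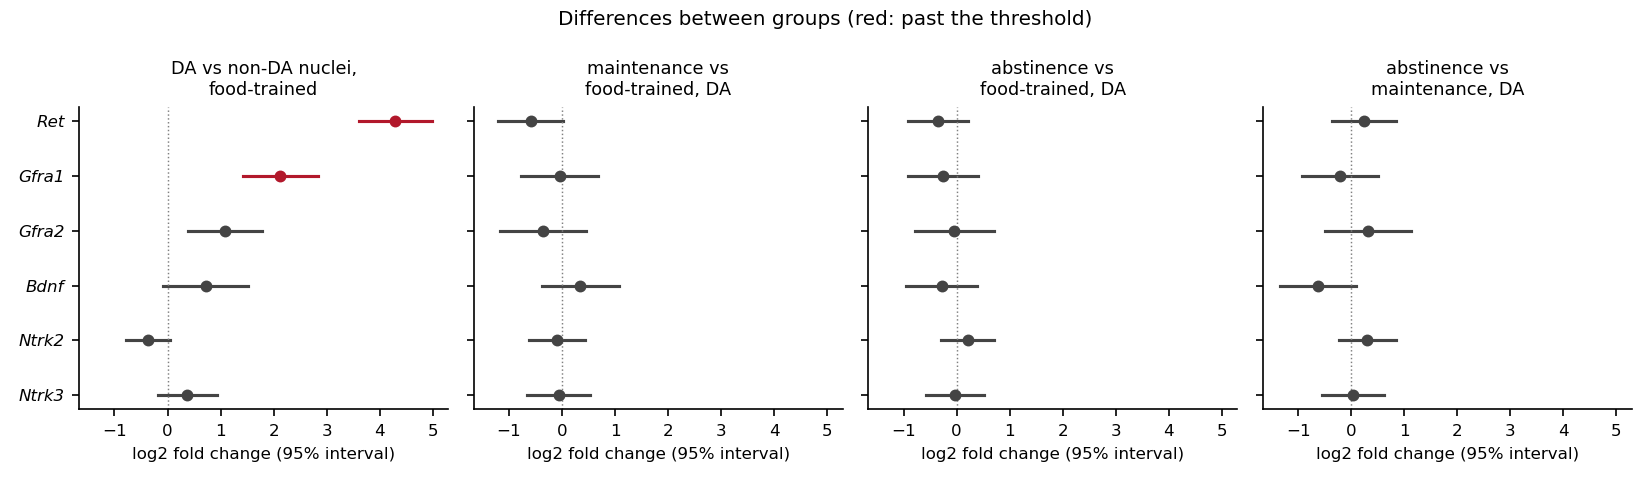
Log2 fold changes (points) with 95% intervals (lines) of 6 genes in the 4 comparisons; red marks those past the threshold. Only Ret and Gfra1 in the comparison of fractions are red; Gdnf was not tested, and Ngfr is left out because its intervals are wider than the axis.

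Between genes, levels can be ordered only per length. Per kilobase, the means in food-trained DA nuclei ran from Ret (267.5 ± 88.7 CPM per kilobase, SD, n = 4) through Gfra1 (67.7 ± 29.0), Ntrk2 (65.0 ± 10.4), Gfra2 (35.5 ± 14.3), Bdnf (22.1 ± 9.21) and Ntrk3 (9.36 ± 3.03) to Ngfr (0.612 ± 0.708). Gfra1 and Ntrk2 did not differ beyond their spread. In non-dopaminergic nuclei Ntrk2 came first at 84.7 ± 5.62 CPM per kilobase. Gfra2 (16.9 ± 4.52), Gfra1 (15.6 ± 3.70), Ret (13.7 ± 2.47) and Bdnf (13.5 ± 3.43) followed there, with neighbours closer than their SDs, and Ntrk3 (7.29 ± 0.845) and Ngfr (4.02 ± 2.32) came last among the tested genes. Ret was thus above all other members in DA nuclei, and below Ntrk2 and both co-receptors in mean in non-dopaminergic nuclei. Ntrk2 and Ntrk3 have long transcripts with several isoforms, for which the longest transcript is a rough measure of length.

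Across all 15 libraries, the genes whose log2 CPM followed Ret most closely were Slc6a3 (the dopamine transporter, Pearson r = 0.992), Slc10a4 (a vesicle-associated transporter of monoamine and cholinergic neurons, r = 0.988) and Chrna6 (a nicotinic receptor subunit of dopamine neurons, r = 0.986). These values mostly describe the gap between the fractions. Over the 11 DA libraries alone they were Ntsr1 (the neurotensin receptor, r = 0.885), Mgat5b (r = 0.877) and Sez6l (r = 0.867). Relative to Slc6a3, Ret was 0.458 to 0.526 in food-trained DA libraries and 0.669 to 0.997 in non-dopaminergic libraries, where Slc6a3 was at 92.8 ± 18.4 CPM (SD, n = 4). Gfra1 was followed most closely by Chrm5 (the muscarinic receptor of dopamine neurons, r = 0.986), Rtn1 (0.967) and Sdc2 (0.964), and Gfra2 by Tmem130 (0.976), Syt13 (0.960) and Nomo1 (0.937). The closest genes to Bdnf were Ano10 (0.919), Ythdf2 (0.908) and Tmed3 (0.906), and those to Ntrk2 were Myo16 (0.876), Ribc2 (0.87) and Letmd1 (0.87). Among those closest to Ntrk3 were Plxnc1 (0.893) and Gpr12 (0.833), and those closest to Ngfr were Car4 (0.962), Aif1l (0.923) and Abi3 (0.919). All these correlations are over 15 libraries that share the split into fractions, and they are given as descriptions.

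**Figure D4:**
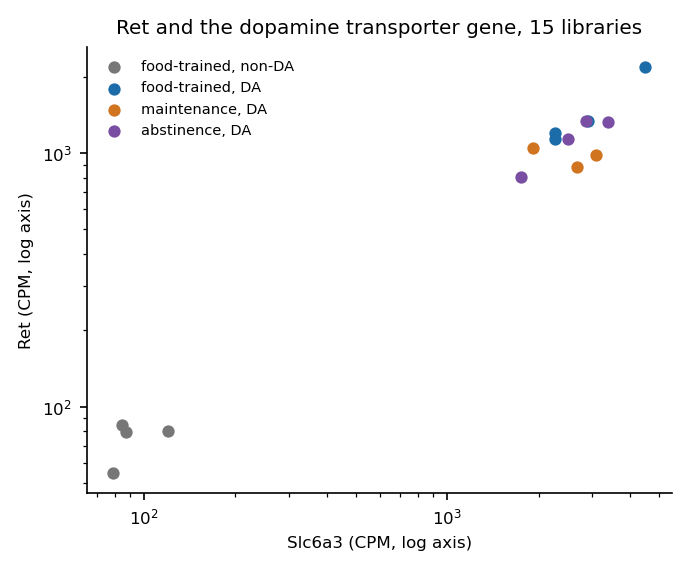
Ret against Slc6a3, the dopamine transporter gene, in the 15 libraries (points, CPM on log axes), coloured by group. The non-dopaminergic libraries form a separate cluster at 54.8 to 84.4 CPM of Ret, and within the DA libraries food-trained replicate 4 is highest for both genes.

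Within DA nuclei, several members varied together from library to library. Food-trained replicate 4 was the highest of the 11 DA libraries for Ret, Gfra1 and Gfra2, and abstinence replicate 4 the lowest for these genes and for Ntrk2. The correlations of log2 CPM over the 11 DA libraries were 0.867 for Gfra1 with Gfra2, 0.795 for Ret with Gfra2 and 0.709 for Ret with Gfra1. They were 0.761 for Gfra2 with Ntrk2 and 0.62 for Ntrk2 with Ngfr, and the remaining pairs of tested members lay between -0.05 (Bdnf with Ntrk2) and 0.529 (Gfra1 with Ntrk2). The summed dopamine neuron markers were also highest in food-trained replicate 4 (12790 CPM) and lowest in abstinence replicate 4 (5921 CPM). The part of this in the levels was not tested.

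The second set of comparisons asked whether the cocaine schedule moved these genes within DA nuclei. No member passed the threshold between any pair of stages, with 7 of the 8 tested each time. The background was low too. Of 19060 genes tested, 0.131% passed between maintenance and food training, 0% between abstinence and food training and 0.178% between abstinence and maintenance (edgeR quasi-likelihood test, adjusted p under 0.05). Unadjusted p-values under 0.05 were also seen for 0 of the 7 members in each of these, against 11.6%, 4.3% and 9.92% of all genes. With the DESeq2 test, 0 of 7 members passed in each comparison, against 5.25%, 0.753% and 4.26% of all genes with an adjusted p. The intervals below give the sizes of change that these libraries leave possible. The comparisons with food training share the food-trained libraries, and those with maintenance share the maintenance libraries.

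Ret stood at 877, 1048 and 986 CPM in the maintenance libraries and at 1138, 1323, 1339 and 802 CPM in the abstinence libraries. All 3 maintenance libraries lay below all 4 food-trained ones, as was the case for 4.14% of genes tested, while the abstinence libraries spanned both. The log2 fold change of maintenance against food training was -0.59 (SE 0.28, 95% interval -1.20 to 0.02, edgeR adjusted p = 0.445). Without food-trained replicate 4 it was -0.34. Abstinence against food training gave -0.35 (95% interval -0.91 to 0.21) and abstinence against maintenance 0.24 (-0.37 to 0.85). Ret changes beyond 0.434-fold or 1.015-fold at maintenance thus lay outside the interval.

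Gfra1 stood at 347, 313 and 255 CPM at maintenance and at 230, 370, 305 and 156 CPM at abstinence. The 3 stages overlapped. The log2 fold change was -0.05 (95% interval -0.77 to 0.67) at maintenance and -0.26 (-0.92 to 0.41) at abstinence, both against food training. Gfra2 stood at 117, 81.5 and 90.6 CPM at maintenance and at 112, 180, 138 and 52.3 CPM at abstinence, where the highest library was over 3 times the lowest. Its log2 fold changes against food training were -0.36 (-1.18 to 0.46) and -0.04 (-0.79 to 0.71). The ratio of Gfra1 to Gfra2 per kilobase was 2.104 to 2.871 at maintenance and 1.53 to 2.23 at abstinence. Ret over the sum of both was 1.48 to 2.23 at maintenance, below the 2.37 to 2.86 of food training in every library, and 1.84 to 3.02 at abstinence.

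Bdnf stood at 117, 115 and 128 CPM at maintenance and at 88.7, 92.3, 74.1 and 56.4 CPM at abstinence. Every abstinence library lay below every maintenance library, as did 4.52% of genes tested. The log2 fold change of abstinence against maintenance was -0.63 (SE 0.34, 95% interval -1.35 to 0.09, edgeR adjusted p = 0.576). Against food training it was 0.35 (-0.38 to 1.07) at maintenance and -0.28 (-0.96 to 0.39) at abstinence. The maintenance libraries had lower slopes of log2 CPM on transcript GC content than the other DA libraries (-0.0376 to -0.0224 against -0.0167 to 0.0204 per percent), and the longest Bdnf transcript has 40.9% GC. With these slopes removed, abstinence against maintenance was -0.31 and maintenance against food training 0.02. The maintenance libraries share the low slopes, so slope and stage cannot be told apart. The part of GC content in the level of Bdnf was not tested. A fit of all 15 libraries was also run with a term shared by the maintenance libraries and non-dopaminergic replicate 2. There maintenance against food training was -0.09. Among DA libraries this term coincides with maintenance, so its size came from non-dopaminergic replicate 2 alone. The value is therefore no separate adjustment for GC slope.

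Ntrk2 stood at 535, 481 and 585 CPM at maintenance and at 605, 854, 736 and 450 CPM at abstinence. Its log2 fold changes were -0.10 (95% interval -0.63 to 0.44) at maintenance and 0.21 (-0.29 to 0.70) at abstinence against food training, and 0.30 (-0.24 to 0.84) between the last stages. Ntrk3 stood at 173, 211 and 148 CPM at maintenance and at 195, 204, 184 and 145 CPM at abstinence. Its means at the 3 stages were 184, 177 and 182 CPM, and its log2 fold changes were -0.06 (-0.65 to 0.53), -0.03 (-0.57 to 0.52) and 0.03 (-0.56 to 0.62). Ngfr had 0, 0 and 64 counts at maintenance and 520, 537, 400 and 30 counts at abstinence, where it was detected in all 4 libraries. Its log2 fold changes were -2.01 (-7.09 to 3.07) at maintenance and 1.80 (-2.73 to 6.33) at abstinence against food training, and 3.81 (-1.74 to 9.36) between the last stages. Without maintenance replicate 3, the one maintenance library with counts, the maintenance group is at 0, and the fitted values of -9.55 against food training and 11.35 between the last stages are then no measure of size. Without any other single library the value between the last stages was 3.24 to 4.19. Gdnf had counts only in abstinence replicates 2 and 3 of the DA libraries, at most 12, and the stages were not compared for it.

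The rest of the pathway was read from 10 lists by role, with 92 genes including the 8 members, of which 88 were tested. Between the fractions, 7 of 88 passed, all higher in DA nuclei, among them Ret, Gfra1, Ntf3, Ndn, Manf and Spry3. Without the members this was 5 of 81, against 12.8% of all genes. The count ranged from 4 to 14 over the alternatives, with 14 with the DESeq2 test (20.5% of all genes), 13 with limma-voom (19.9% of all genes), 14 without food-trained DA replicate 3, and 4 without non-dopaminergic replicate 1 or 3. Without these libraries the calls over all genes were 3740, 1900 and 2068, against 2534 with every library.

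Among GDNF family ligands, 0 of 4 tested passed, where 12.8% of all genes did. Nrtn, the ligand of Gfra2, was at 3.87 ± 4.17 CPM in food-trained DA nuclei and 4.43 ± 1.88 CPM in non-dopaminergic nuclei (SD, n = 4 each). Artn, Pspn and Gdf15 had means under 1 CPM in both. Among the receptors, Gfra4 was at 32.0 ± 9.97 and 30.1 ± 3.75 CPM, with a log2 fold change of 0.10 (95% interval -0.55 to 0.75). Gfra3, the artemin co-receptor, had 0 counts in all 15 libraries, and Gfral, the GDF15 receptor, had counts in 1 non-dopaminergic library only. The alternative GDNF receptors Ncam1 and Sdc3 had log2 fold changes of 0.25 (-0.36 to 0.86) and 0.09 (-0.55 to 0.72).

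Among the neurotrophins, Ntf3 passed. It stood at 35.5, 54.8, 37.99 and 99.7 CPM in DA libraries and at 3.37, 3.00, 3.29 and 5.64 CPM in non-dopaminergic libraries. Ntf3 levels did not overlap, as for 6.41% of genes tested in this direction. Its log2 fold change was 3.91 (SE 0.45, 95% interval 2.90 to 4.91, edgeR adjusted p = 0.00292), and it passed under all 16 alternatives. Thus the ligand of TrkC differed between the fractions, while for the TrkC gene Ntrk3 the interval was -0.18 to 0.92. Ntf5 had 0 counts in all 11 DA libraries and a mean of 0.512 CPM in non-dopaminergic nuclei.

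Among the neurotrophin receptors, the sortilin family co-receptors did not pass: Sorcs3 at 0.84 (edgeR adjusted p = 0.0513), Sorcs1 at -0.76 (0.0725), Sort1 at -0.42 (0.120) and Sorcs2 at -0.22 (0.871).

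**Figure D5:**
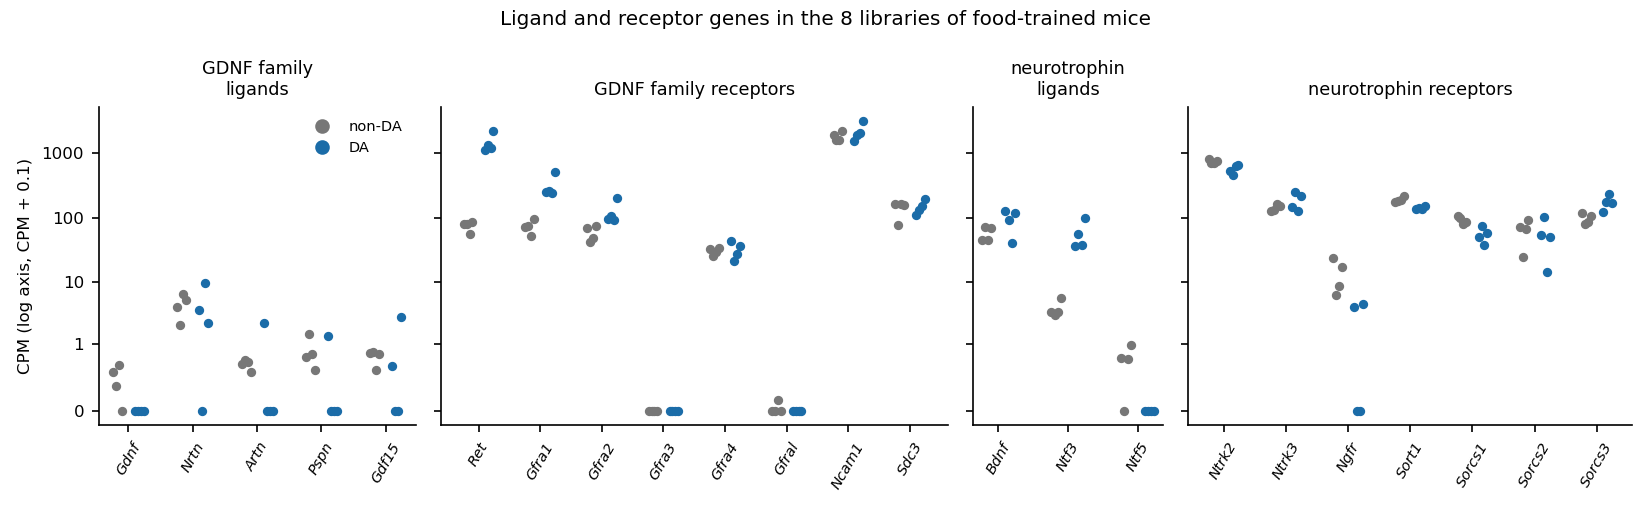
Levels of GDNF family and neurotrophin ligands and receptors named in the text, in the 8 food-trained libraries (points, CPM + 0.1 on a log axis), grey for non-dopaminergic and blue for DA nuclei. Ret, Gfra1 and Ntf3, which passed the threshold, do not overlap between the colours. Neither do Gfra2, Ntrk2, Ngfr, Sort1, Sorcs1 and Sorcs3, which did not pass. Over all genes tested, 6.41% lay wholly higher and 19.7% wholly lower in DA nuclei. Gfra3 lies at 0 in all libraries.

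Further from the receptors, calls by role are set against the 12.8% of all genes tested that passed. Of the partners of p75 and Trk, 1 of 8 passed, near that share. This was Ndn (necdin, which binds p75), at a difference of 1.48 (log2, SE 0.31, adjusted p = 0.0119 in edgeR). Of 14 feedback inhibitors 1 passed, the Sprouty gene Spry3, at 1.71 (SE 0.41, edgeR adjusted p = 0.0247), and the call was lost under 5 of 16 alternatives. Of the other neurotrophic factors, Manf passed at 1.15 (SE 0.31, edgeR adjusted p = 0.0417), and the call was lost under 7 of 16 alternatives. The 20 receptor adaptors and enzymes, the 17 genes of the downstream kinase cascades and the 6 proneurotrophin proteases had 0 calls, with 2, 4 and 1 at an unadjusted p under 0.05 in edgeR and medians of -0.24, 0.10 and -0.43 on the log2 scale. Over all genes tested, 24.3% had an unadjusted p under 0.05 and the median was -0.21. Between stages, 0 of 88 pathway genes passed in each comparison with edgeR. Unadjusted p-values under 0.05 were found for 16 of the 88 genes at maintenance against food training, 2 at abstinence against food training and 14 at abstinence against maintenance, beside the 11.6%, 4.3% and 9.92% of all genes given above. The DESeq2 test passed 7, 0 and 3 of 87 pathway genes with an adjusted p, where the shares of all genes were 5.25%, 0.753% and 4.26%. At maintenance against food training, 3 receptors of the families had an unadjusted p under 0.05. Sorcs1, a sortilin family receptor, stood at 54.4 ± 15.2 CPM after food training (SD, n = 4), 118.7 ± 30.2 CPM at maintenance (n = 3) and 85.4 ± 18.9 CPM at abstinence (n = 4), with a log2 fold change of 1.12 at maintenance (SE 0.29, adjusted p = 0.181 in edgeR). Sorcs2, of the same family, lay in the other direction at 54.3 ± 35.3, 8.01 ± 7.11 and 34.7 ± 9.40 CPM, with a difference at maintenance of -2.76 (95% interval -5.23 to -0.29, adjusted p = 0.399 in edgeR). Sdc3, a syndecan that binds GDNF, stood at 146 ± 36.8, 77.0 ± 38.6 and 150.1 ± 54.3 CPM. It gave -0.92 at maintenance against food training (95% interval -1.79 to -0.06, adjusted p = 0.408 in edgeR) and 0.95 at abstinence against maintenance (0.09 to 1.81, adjusted p = 0.487 in edgeR). Ntf3 stood at 57.0 ± 29.7, 80.8 ± 46.6 and 41.2 ± 8.26 CPM at these stages, and abstinence against maintenance gave -0.97 (95% interval -1.87 to -0.08, adjusted p = 0.491 in edgeR).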

How the data were processed

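The authors deposited whole-number counts per gene for 15 libraries. The submitters' processing notes name Trim Galore 0.6.7, cutadapt 1.18, STAR 2.7.10a, StringTie 2.1.5, DESeq2 1.38.3 and the builds mm10 and GRCm38, without roles. The counting program, annotation and strand setting are not given in the sources used here. A second deposited table held the same counts in 10 columns (0 of 359760 cells differed) and was not used further. It lacks all non-dopaminergic libraries, so the fractions cannot be compared in it, and it lacks food-trained DA replicate 3. Without that replicate, 4 members instead of 2, and 3740 of all genes instead of 2534, pass between the fractions in the first table.

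The main test was that of edgeR 4.0.16 in R 4.3.3 (filterByExpr, TMM, quasi-likelihood F-test, two-sided, Benjamini-Hochberg over all genes tested). The fractions were compared in the 8 food-trained libraries and the stages in a fit of the 11 DA libraries. Alternatives used limma 3.58.1, DESeq2 1.42.0, other scalings and filters, a GC correction, a replicate block, all 15 libraries in 1 fit, and fits without each library. A further one added a slope term, shared by the maintenance libraries and non-dopaminergic replicate 2, to the fit of all 15 libraries. Scripts were tested on simulated data.

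Each sample pools 2 mice, and p-values measure the spread between such pools, with all libraries treated as independent. Whether food-trained DA and non-dopaminergic libraries share mice is not stated in the sources used here. The text names all 8 members, the ligands and receptors of both families, pathway genes past the threshold, and per member the 3 genes of closest pattern among those with a mean of at least 20 counts (log2 CPM, prior count 2). Predicted genes were left out, and some genes of these lists are not reported here. The members and lists were chosen with earlier results of these data known. Of the 35976 symbols, 26763 matched GENCODE M21 directly and 567 through another symbol, for transcript length and GC content.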

Additional observations from a re-analysis of the deposited data

Results flagged for a closer look

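In 23 groups of 4 samples, the gap of the highest or lowest library to its nearest neighbour was set against the range of the group (Dixon's test at the 95% level), which chance passes in about 1 of 20 groups. It was passed in 3. Gfra1 in food-trained DA replicate 4 was 515.7 CPM, against 239 to 254 CPM in the other 3 libraries. Gfra2 in the same library was 197.4 CPM, against 92.4 to 107 CPM. Ret in non-dopaminergic replicate 3 was 54.8 CPM, against 79.5 to 84.4 CPM in the other 3. The fold changes of Ret, Gfra1 and Gfra2 between the fractions without food-trained DA replicate 4 were 4.04, 1.78 and 0.76 on the log2 scale.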

How the results depend on the processing

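Ret and Gfra1 passed between the fractions under all 16 alternatives run, and no member passed between stages under any of 21. The count of members past the threshold between the fractions was 4 with limma-voom, which added Gfra2 and Ngfr and passed 19.9% of all genes against 12.8% with edgeR, and 2 to 4 without single libraries. It was 4 without food-trained DA replicate 3, which added Gfra2 and Bdnf, while the calls over all genes went from 2534 to 3740. The cause was not tested.

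Stage values that changed sign did so without passing the threshold, and the cause was not tested. For maintenance against food training these were Gfra1 with limma-voom (0.012) and, with the slope term, Gfra2 (0.23), Bdnf (-0.086), Ntrk2 (0.013) and Ntrk3 (0.09). For abstinence against food training it was Ntrk3 with limma-voom (0.019). For abstinence against maintenance they were Gfra2 (-0.27) and Ntrk3 (-0.12) with the slope term and Ntrk3 with upper quartile scaling (-0.021). The size of the slope term came from non-dopaminergic replicate 2 alone, so sign changes with it do not measure an effect of GC slope. Without single libraries, the ranges were, at maintenance against food training, -0.16 to 0.29 for Gfra1 and -0.24 to 0.11 for Ntrk3. At abstinence against food training they were -0.45 to 0.08 for Gfra1, -0.29 to 0.27 for Gfra2 and -0.17 to 0.16 for Ntrk3, and at abstinence against maintenance -0.087 to 0.212 for Ntrk3. The positive values of Gfra1 came without food-trained replicate 4 (0.29 and 0.08) or maintenance replicate 3 (0.07).

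With the replicate number as a block, the members past the threshold were 2 between the fractions and 0 between stages, and all genes past it were 775 between the fractions against 2534 without the block. Gfra1 at maintenance (0.04) and Ntrk3 at abstinence (0.016), both against food training, changed sign under the block. Same-numbered libraries correlated at 0.035, 0.053, 0.087 and 0.041, and 3 of 4 correlated best with their own number. The sources used here do not say whether same-numbered DA and non-dopaminergic libraries come from the same mice. The numbers were not taken as a pairing in the main test, which treats the fractions as independent samples. Over all genes, the median moved by -0.15 on the log2 scale with limma-voom and with the block in the comparison of fractions, and by at most 0.08 under the other scalings. Ngfr has no value with at least 10 counts in every library.

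With 3 or 4 libraries a group, the stage intervals of Ret, Gfra1, Gfra2, Bdnf, Ntrk2 and Ntrk3 reach from 0.392-fold to 2.19-fold at their widest. Differences inside each interval remain possible. Gdnf and Ngfr rest on counts near the floor of 3 in several libraries.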
